A study of Mus musculus with 6 samples.

Results

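Adipocyte and lipid droplet genes were followed in 6 skin tumours grown from B16F10, a mouse melanoma line that makes pigment. The set holds 10 genes, Adipoq, Plin1, Plin2, Plin4, Fabp4, Cidec, Cfd, Lpl, Cd36 and Pparg, out of 44679 genes in each library. They were chosen by symbol, and each symbol matched 1 Ensembl identifier of the GRCm38 annotation. Of the tumours 3 came from mice given no treatment and 3 from mice given vorinostat in vivo, an inhibitor of histone deacetylases. All 6 were of the same line and tissue, and the RNA came from tumour cell pellets. The strain, age and sex of the mice, the dose and schedule of the drug and any removal of host cells are, in the sources used here, not given, and the labels do not say that each tumour came from its own mouse. The p-values below therefore measure the spread between these samples.

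Lipid droplets are stores of triglyceride and sterol esters inside a phospholipid monolayer, and perilipins coat them and control access of lipases. A fat cell holds a single large droplet coated by perilipin 1, whose growth by fusion depends on CIDEC, and it secretes adiponectin (Adipoq) and adipsin (Cfd). Most other cells, tumour cells and macrophages among them, keep small droplets coated by perilipins 2 and 3. Fatty acids reach these cells by lipoprotein lipase (Lpl), which frees them from circulating triglyceride, by the scavenger receptor CD36 and by fatty acid binding proteins such as FABP4, which capillary endothelium and macrophages also make. PPARG is the nuclear receptor that drives fat cell formation and many of these genes.

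The depth of the libraries was 11322260 to 28863715 reads assigned to genes. Mitochondrial ribosomal RNA took 55.9% of them in untreated tumour 3 and 13.3% to 25.3% in the other 5, which left between 2.98 M and 7.37 M reads on nuclear protein-coding genes per library. Levels are given as CPM, reads over a library size adjusted by TMM factors, on which 3 reads are 0.114 to 0.285 CPM depending on the library. The order of genes by level is taken from CPM per kb of effective length, since CPM alone rises with gene length. The 7 melanocyte markers checked (Pmel, Tyr, Dct, Mlana, Tyrp1, Mitf and Sox10) were present in every library, at a summed 5770 to 7380 CPM in untreated and 5740 to 7980 CPM in treated tumours.

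The defining genes of fat cells were at or near 0 in all 6 tumours, so the label adipocyte is not borne out by its markers here. Adipoq, Plin1, Plin4, Cidec and Cfd together had 15, 23 and 11 reads in untreated tumours 1, 2 and 3 and 27, 18 and 39 reads in vorinostat tumours 1, 2 and 3. The other members, Plin2, Cd36, Lpl, Fabp4 and Pparg, had 562 to 1468 reads per library. By level per kb the order was Plin2 at 21.5, Cd36 at 6.11, Fabp4 at 3.59 and Lpl at 2.93 CPM per kb (means of 6 tumours), followed by Cidec, Pparg, Adipoq, Plin1, Plin4 and Cfd between 0.225 and 0.079. Plin2 in its lowest tumour (16.7) lay above Cd36 in its highest (10.8), and Lpl in its lowest tumour (1.13) lay above Cidec in its highest (0.743). The ranges of Cd36, Fabp4 and Lpl overlapped one another, as did those of neighbours among the 6 low genes.

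**Figure D1:**
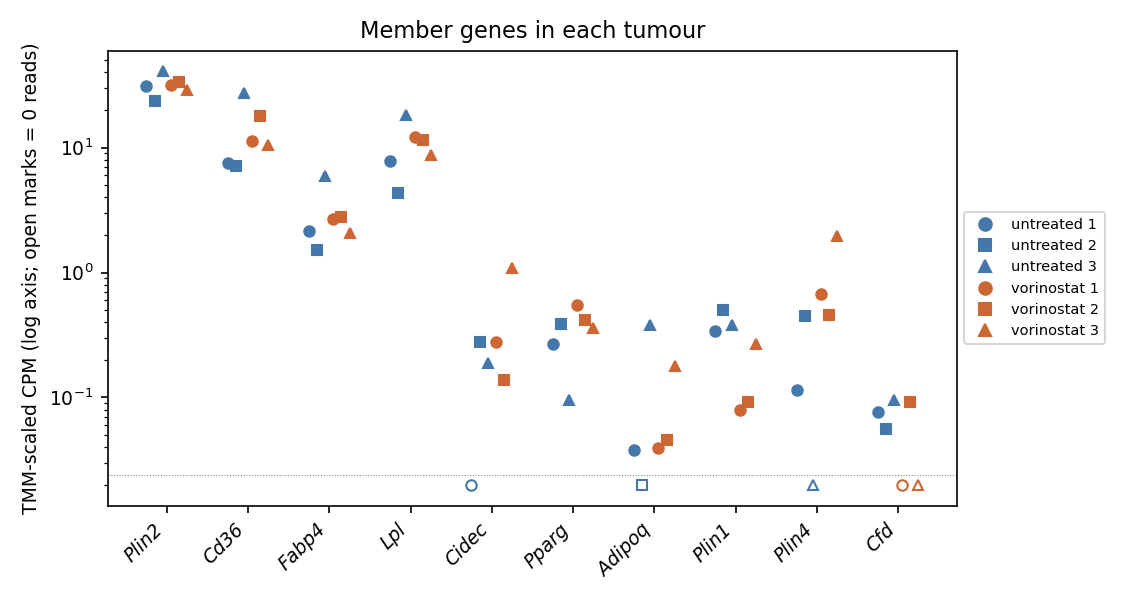
TMM-scaled CPM (log axis) of the 10 member genes, 1 mark per tumour, blue for untreated and orange for vorinostat, with open marks at the bottom for tumours with 0 reads. CPM is not divided by gene length, so the plot compares tumours within a gene. Plin2, Cd36, Fabp4 and Lpl lie above 1 CPM in every tumour, and all but 2 of the values of the other 6 genes lie below it.

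The perilipins show the contrast most directly. Plin2 (ENSMUSG00000028494, chromosome 4 from 86648386 to 86670060, GRCm38) encodes the coat protein of small droplets. It stood at 31.0, 23.5 and 40.7 CPM in untreated tumours 1, 2 and 3 and at 31.4, 33.5 and 28.8 CPM in vorinostat tumours 1, 2 and 3. Plin1 (ENSMUSG00000030546, chromosome 7 from 79720218 to 79732903), the coat of the large droplet of fat cells, had 9, 9 and 4 reads in the untreated and 2, 2 and 3 reads in the treated tumours. Per kb, Plin2 exceeded Plin1 by 124-fold in the means of 6 tumours. The promoters of this coat of small droplets and this coat of the large droplet are printed for their letters, as RefSeq gives them on GRCm38.p6, from 250 bases before to 50 bases after an annotated start, both on the minus strand. Capitals mark matches to the letters CACGTG, an E-box of the kind that the melanocyte factor MITF and its relatives bind, and AGGTCA, the half-site of nuclear receptors such as PPARG, either of them on either strand.
Plin2, chr4:86670010-86670309: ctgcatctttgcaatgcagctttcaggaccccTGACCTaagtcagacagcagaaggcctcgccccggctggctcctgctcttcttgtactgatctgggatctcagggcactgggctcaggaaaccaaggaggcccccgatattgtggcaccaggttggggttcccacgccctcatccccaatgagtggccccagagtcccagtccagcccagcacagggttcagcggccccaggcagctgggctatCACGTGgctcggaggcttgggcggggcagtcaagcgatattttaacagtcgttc
Plin1, chr7:79732727-79733026: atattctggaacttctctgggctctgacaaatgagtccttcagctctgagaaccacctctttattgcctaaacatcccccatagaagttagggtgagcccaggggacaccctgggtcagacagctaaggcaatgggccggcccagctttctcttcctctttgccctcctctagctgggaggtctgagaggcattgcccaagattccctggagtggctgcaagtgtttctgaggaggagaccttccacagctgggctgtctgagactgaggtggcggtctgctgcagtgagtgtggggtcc

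The Plin2 window holds 1 CACGTG, which spans the annotated start, and 1 AGGTCA on the opposite strand (printed as TGACCT), while the Plin1 window holds no match. Of the members 8 had a window in the RefSeq table, with 11 windows among them; Fabp4 and Lpl had none. CACGTG was found in 1 of these 11 windows, against 7.15% of all 32851 promoter windows in the table. AGGTCA was found in 4 of the 11, those of Plin2 and Cd36 and 2 of the 3 windows of Pparg, against 16.3% of all windows. The direct repeat AGGTCANAGGTCA, the element of PPAR and RXR pairs, was found in 0 of the 11 and in 0.0396% of all windows. It holds the half-site at each end, so these searches overlap. A match is a run of letters and was not tested for binding.

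Some relatives of the members were expressed far above them and others were barely detected. Plin3, the other perilipin of small droplets, stood at 17.2 to 27.8 CPM per kb, overlapping the range of Plin2 (16.7 to 26.4), and the ratio of their means was 1.08. Plin5, a perilipin of oxidative tissue, had 0 to 10 reads per library and Plin4 0 to 22. The 3 CIDE genes Cidea, Cideb and Cidec had at most 12 reads in any tumour. Among fatty acid binding proteins, Fabp5 stood at 155 to 207 CPM per kb, 52.1-fold above Fabp4 in the means, Fabp7, the form of brain and neural crest cells, at 0.477 to 1.92 and Fabp3, the form of heart and muscle, at 0 to 0.785. Among PPARs, Ppard stood at 6.01 to 9.59 CPM per kb, 36.7-fold above Pparg in the means. Ppara stood at 0.0875 to 3.58 CPM per kb, with the highest of these in vorinostat tumour 1 and no more than 0.48 in the other 5. That tumour stood apart only after division by effective length. In CPM it was at 1.58, against 1.45 in untreated tumour 2 and 1.26 in vorinostat tumour 3. Plin2, Plin3, Fabp5 and Ppard in their lowest tumours lay above Plin1, Plin4, Plin5, Fabp3 and Pparg in their highest.

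**Figure D2:**
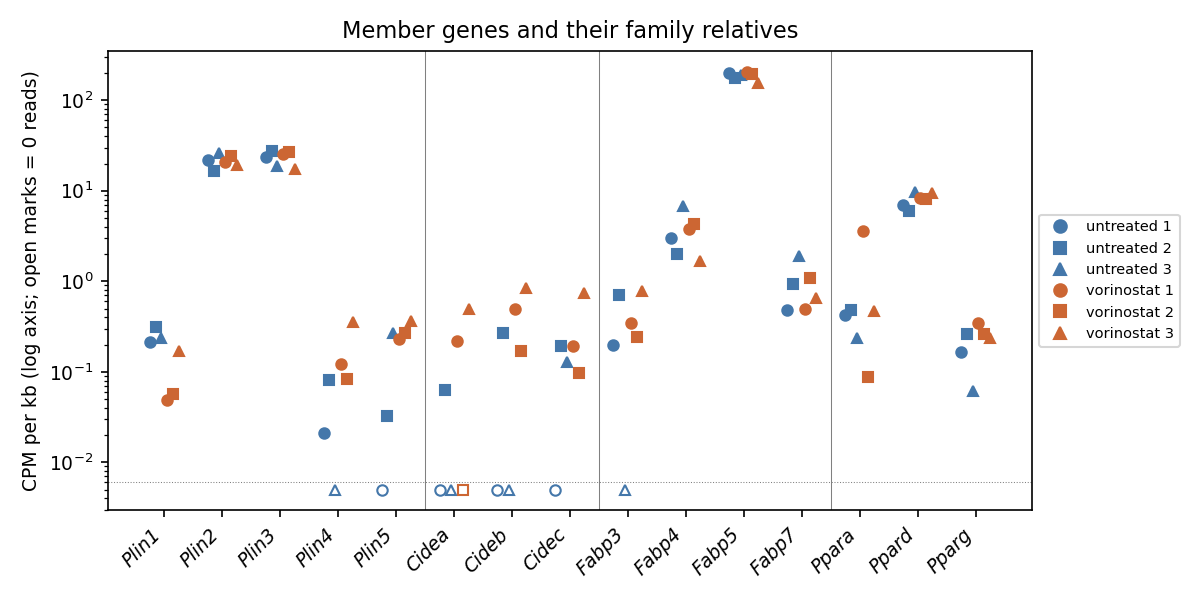
CPM per kb of effective length (log axis) of the perilipins, CIDE genes, fatty acid binding proteins and PPARs, 1 mark per tumour, with open marks at the bottom for 0 reads and vertical lines between families. Plin2, Plin3, Fabp5 and Ppard lie far above Plin1, Plin4, Plin5 and Pparg in all 6 tumours.

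No member was called between vorinostat and untreated tumours. Of the 10 members 6 passed the filter on low counts and were tested, and edgeR's quasi-likelihood test gave 0 of the 6 an adjusted p under 0.05, as it did 0 of all 14776 genes tested (0%). Of the members 0 had an unadjusted p under 0.05, against 927 of all genes (6.27%). DESeq2 called 6 genes (0.0181%) and limma-voom 0 (0%), with no member among them. The log2 fold change (vorinostat minus untreated) was above 0 for 3 of the 6, against 54.1% of all tested genes, and its median was 0.07 against 0.03 for all. Plin4, among those above 0, had 11 reads in the untreated and 49 in the treated tumours, so it entered the test mostly through the treated group. Plin1, with 22 and 7 reads, was left out. The count of directions and the median thus depend in part on the filter.

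**Figure D3:**
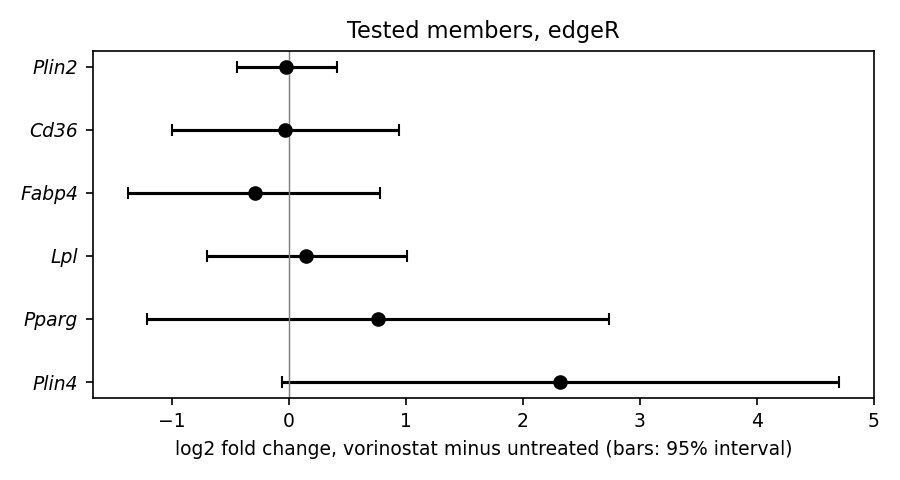
Log2 fold change of the 6 tested members in edgeR, vorinostat minus untreated, with bars for the 95% interval from 3 tumours a group. The interval is narrowest for Plin2 (-0.44 to 0.41) and widest for Plin4 (-0.06 to 4.70), and all 6 hold 0.

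Plin2 was 31.7 ± 8.64 CPM in untreated and 31.2 ± 2.38 CPM in treated tumours (SD, n = 3 each), for a log2 difference of -0.02 (SE 0.19) and an adjusted p of 0.990 in edgeR. Its 95% interval of -0.44 to 0.41 is the tightest of the set. The highest and the lowest of the 6 values, in untreated tumours 3 and 2, enclosed all treated ones. Its direction flipped under other scalings, from -0.03 with DESeq2-type size factors to 0.05 with upper-quartile scaling.

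The genes of fatty acid supply varied more between untreated tumours than between the groups. Cd36 (ENSMUSG00000002944, chromosome 5 from 17781690 to 17888801), the fatty acid receptor, stood at 7.52, 7.14 and 27.3 CPM in untreated tumours 1, 2 and 3 and at 11.3, 17.8 and 10.4 CPM in the treated ones. Lpl (ENSMUSG00000015568, chromosome 8 from 68880491 to 68907448), the lipase, stood at 7.82, 4.35 and 18.2 CPM in untreated and at 12.2, 11.6 and 8.79 CPM in treated tumours. Fabp4 (ENSMUSG00000062515, chromosome 3 from 10204088 to 10208576), the cytosolic carrier, stood at 2.17, 1.51 and 5.90 CPM in untreated and at 2.69, 2.80 and 2.06 CPM in treated tumours. In CPM untreated tumour 3 was the highest and untreated tumour 2 the lowest of the 6 in all 3 genes, so the groups overlapped. Per kb untreated tumour 3 was also the highest, but untreated tumour 2 was the lowest only for Lpl. The lowest per kb was untreated tumour 1 for Cd36 (3.08, against 4.02 in untreated tumour 2). For Fabp4 it was vorinostat tumour 3 (1.69, against 2.02 in untreated tumour 2). The log2 fold changes were -0.03 for Cd36 (SE 0.44, 95% interval -1.0 to 0.94), 0.15 for Lpl (SE 0.39, -0.70 to 1.01) and -0.29 for Fabp4 (SE 0.49, -1.37 to 0.78), with edgeR adjusted p of 0.992, 0.950 and 0.912.

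These values rested on untreated tumour 3, the highest of the 6 in CPM in all 3 genes. Without it every treated tumour lay above both remaining untreated ones in Cd36 (10.4 CPM or more against 7.52 or less) and in Lpl (8.79 or more against 7.82 or less). The log2 fold changes were then 0.84 for Cd36 (unadjusted p 0.00433) and 0.80 for Lpl (unadjusted p 0.00836), both with an edgeR adjusted p of 0.957, so neither was called (1 gene of all was, 0.00656%). In that edgeR fit 684 of 15233 genes had an unadjusted p under 0.05. Fabp4 stood at 0.43 without untreated tumour 3 (edgeR adjusted p 0.958) and still overlapped. That tumour was singled out after its values were seen, and leaving out the highest untreated value favours such a separation. The share of all genes separated without it was not computed. The position of untreated tumour 3 also depends on the scale: in deposited TPM, which the mitochondrial ribosomal RNA enters, it was at 2.47 TPM for Cd36, 1.15 for Lpl and 1.56 for Fabp4, in each case below 4 of the other 5 tumours.

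Macrophage markers moved with these members from tumour to tumour. The 10 markers listed (Adgre1, Csf1r, Cd68 and 7 others), all detected in every library, summed to 163, 97.0 and 317 CPM in untreated tumours 1, 2 and 3 and to 212, 219 and 157 CPM in treated tumours 1, 2 and 3. Adgre1, the antigen F4/80, stood at 5.67 ± 2.80 against 5.35 ± 1.54 CPM (untreated against treated, SD, n = 3 each), Csf1r, the receptor for the macrophage growth factor, at 13.4 ± 7.15 against 10.6 ± 1.13 and Cd68, a lysosomal protein, at 18.8 ± 9.12 against 18.4 ± 1.88. The tumours fell in the same order by this sum as by Fabp4 in CPM, but not as by Fabp4 per kb. The largest part of the sum was Lyz2, at 66.8, 40.0 and 160 CPM in untreated and 104, 102 and 63.9 CPM in treated tumours. By Adgre1 alone the order was another, with untreated tumour 3 still the highest (8.37 CPM) and untreated tumour 2 the lowest (2.79 CPM). A ratio within a library does not depend on its scaling. Lpl amounted to 4.80%, 4.49% and 5.72% of the macrophage sum in the untreated and to 5.74%, 5.28% and 5.59% in the treated tumours, a range of 1.28-fold, where Lpl itself ranged 4.18-fold. Fabp4 amounted to 1.27% to 1.86% of the sum (1.46-fold, against 3.92-fold for Fabp4 itself), Cd36 to 4.61% to 8.60% (1.86-fold, against 3.83-fold) and Plin2 to 12.8% to 24.2% (1.89-fold, against 1.73-fold). The ratios were chosen after the values were seen, and the part of macrophages in the members' levels was not tested. In bulk RNA, fewer cells of a type and less RNA per cell cannot be told apart.

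**Figure D4:**
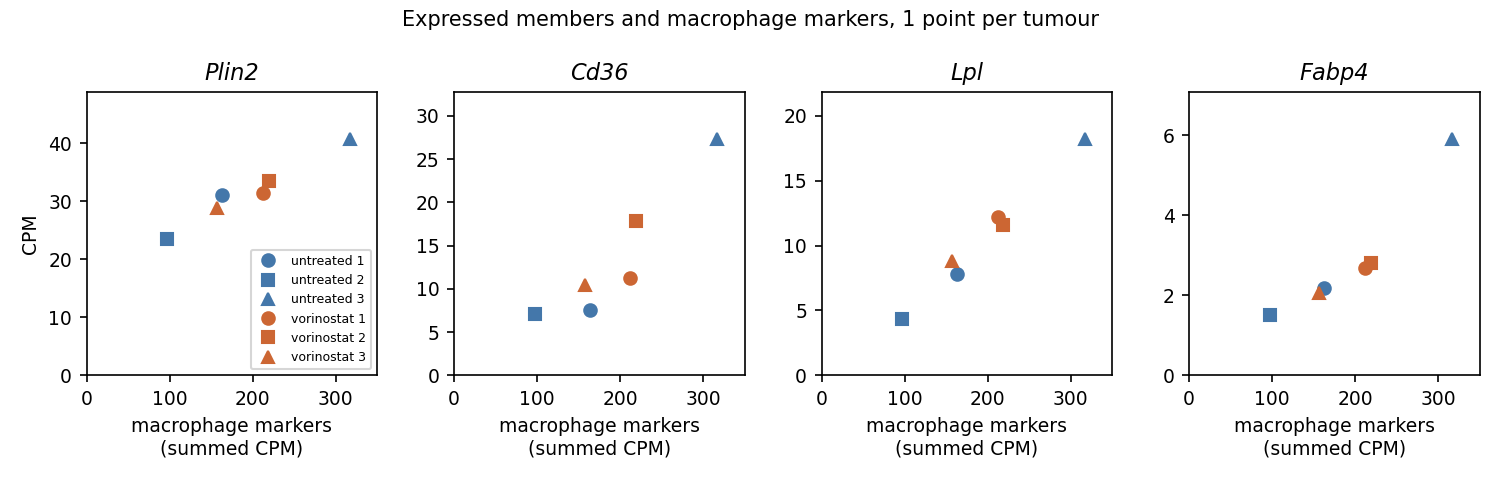
CPM of Plin2, Cd36, Lpl and Fabp4 (vertical axes, from 0) against the summed CPM of 10 macrophage markers (horizontal axes), 1 mark per tumour, blue for untreated and orange for vorinostat. Untreated tumour 3 is at the upper right and untreated tumour 2 at the lower left in all 4 panels.

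Markers of other cells that use these genes, or that lie next to fat in skin, were present at very different levels. Per kb, Egfl7 of the endothelial list stood at 19.8 and Fbln1 of the fibroblast list at 19.1 CPM per kb in the means of 6 tumours, near Plin2, and the rest of these lists at 3.32 (Vwf) or less. The 10 endothelial markers summed to 23.6 to 33.6 CPM in untreated and 29.0 to 40.9 CPM in treated tumours; Pecam1 stood at 2.57 ± 1.83 against 3.02 ± 2.36 CPM, Cdh5 at 1.67 ± 1.77 against 1.07 ± 0.962 and Kdr at 0.922 ± 0.767 against 1.40 ± 0.183. Most of that sum came from Egfl7 and Vwf. The other 8 endothelial markers summed to 4.31, 3.96 and 12.7 CPM in untreated tumours 1, 2 and 3 and to 4.59, 5.19 and 14.1 CPM in the treated ones, a split chosen after the values were seen. Untreated tumour 3, the highest in Cd36, Lpl and Fabp4, was thus high in these markers too, as was vorinostat tumour 3, and in Cdh5 it was the highest of the 6 at 3.71 CPM. As percentages of the sum of all 10 endothelial markers, Lpl ranged 3.61-fold, Fabp4 3.48-fold, Cd36 3.3-fold and Plin2 1.87-fold between tumours. The part of endothelium in the members' levels was not tested. Gpihbp1, the capillary protein that anchors lipoprotein lipase, had 7 to 25 reads per library. The 8 fibroblast markers summed to 65.0 to 74.9 CPM in untreated and 56.2 to 64.3 CPM in treated tumours, so these ranges did not overlap; Col1a1 stood at 5.96 ± 2.03 against 3.34 ± 1.70 CPM, Col1a2 at 4.95 ± 1.73 against 2.75 ± 0.606 and Col3a1 at 6.52 ± 5.84 against 1.25 ± 0.235, with an edgeR adjusted p of 0.743 each. Most of the fibroblast sum came from Fbln1, at 43.9 ± 7.76 against 44.3 ± 5.81 CPM. Of these 8 genes 2 had a log2 fold change above 0 and 6 below, and each of them overlapped between the groups. The 8 keratinocyte markers summed to at most 7.27 CPM, with Krtdap at 0 reads and Krt5, Krt14 and Krt10 at no more than 24 reads in any library. The 8 muscle markers summed to 7.49 to 23.3 CPM, most of it from Ttn (8.11 ± 2.45 against 11.1 ± 8.23 CPM), with Acta1, Ckm and Myh4 at no more than 24 reads.

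The low members ranged from 0 to 10.1 times the level of genes that are silent in most tissues, with Plin1 and Pparg reaching the highest ratios. Summed over 1349 chemoreceptor genes the level was 0.028, 0.0314 and 0.0546 CPM per kb in untreated tumours 1, 2 and 3 and 0.0464, 0.0456 and 0.167 in treated tumours 1, 2 and 3. Over the 6 tumours Plin4 was at most 2.64, Cfd 4.02, Cidec 6.20, Adipoq 6.56, Pparg 8.30 and Plin1 10.1 times that level. Lpl was 36.1 to 91.9, Fabp4 64.5 to 125, Cd36 99.6 to 198 and Plin2 450 to 776 times it in 5 tumours. In vorinostat tumour 3, where the chemoreceptor level was the highest, they were 14.3, 10.1, 35.9 and 115 times it. Adipoq (ENSMUSG00000022878, chromosome 16 from 23146536 to 23158028) had 1, 0 and 4 reads in the untreated and 1, 1 and 2 reads in the treated tumours; its level per kb in vorinostat tumour 3 rests on an effective length of 0.295 kb there, against 0.652 to 1.06 kb in the others. Cfd (ENSMUSG00000061780, chromosome 10 from 79890853 to 79892655) had 2, 1 and 1 reads in the untreated and 0, 2 and 0 reads in the treated tumours. A count of 0 allows up to 3 reads, which is 0.167 CPM for Adipoq in untreated tumour 2 and 0.119 and 0.269 CPM for Cfd in vorinostat tumours 1 and 3; these limits cover counting error only. The filter left both genes out of the test. With no filter they were not called (edgeR adjusted p 0.939 for Adipoq and 0.907 for Cfd), and no difference was detectable at this depth.

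Plin4 was the only member with every treated tumour above every untreated one. Plin4 (ENSMUSG00000002831, chromosome 17 from 56100591 to 56109803) encodes a perilipin of nascent droplets in fat cells. It had 3, 8 and 0 reads in untreated and 17, 10 and 22 reads in treated tumours, or 0.114, 0.446 and 0 CPM against 0.673, 0.459 and 1.97 CPM. Its log2 fold change of 2.32 had an SE of 1.08 and an adjusted p of 0.743 in edgeR, which ran from 0.219 to 1.0 over the settings tried, and was 1.07 without untreated tumour 3 and vorinostat tumour 3. With 1 library left out it ran from 1.5 without vorinostat tumour 3 to 3.64 without untreated tumour 2. Such a separation was found in 6.53% of all tested genes and in 15.3% of the 2320 tested genes with 100 reads or fewer in all. Of these low genes 86.1% had a log2 fold change above 0, with a median of 0.92. Relative to chemoreceptor genes Plin4 stood at 0.742, 2.59 and 0 times in the untreated and 2.64, 1.84 and 2.14 times in the treated tumours. It lies on the strand opposite to Hdgfl2, which overlaps it. Hdgfl2 ran the other way, at 35.9, 25.9 and 76.6 CPM in untreated and 20.6, 19.8 and 23.2 CPM in treated tumours (259 to 941 reads per library). It was not called (log2 fold change -1.1, edgeR adjusted p 0.74), and 5.53% of all tested genes were separated in this direction. The libraries keep strand, but the sources used here do not say whether the counting used it.

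Plin1 separated the other way. At 0.343, 0.502 and 0.381 CPM in untreated and 0.0792, 0.0919 and 0.269 CPM in treated tumours, every treated tumour lay below every untreated one, on 22 reads against 7. The filter left it out of the test; with no filter its log2 fold change was -1.63 (edgeR adjusted p 0.762, with 0.471% of all genes called), and in deposited TPM the groups overlapped. Among 8443 genes of 10 to 100 reads left out by the filter, 0.912% were separated in this direction and 14.3% in the other. Against chemoreceptor genes Plin1 stood at 7.59, 10.1 and 4.28 times in untreated and 1.06, 1.26 and 1.0 times in treated tumours.

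Cidec (ENSMUSG00000030278, chromosome 6 from 113424634 to 113435760), which drives droplet fusion, had 0, 5 and 2 reads in untreated and 7, 3 and 12 reads in treated tumours, and the groups overlapped. Pparg (ENSMUSG00000000440, chromosome 6 from 115360951 to 115490399) had 7, 7 and 1 reads in untreated and 14, 9 and 4 reads in treated tumours. Its fold change on the log2 scale was 0.76 (SE 0.90, 95% interval -1.21 to 2.74, adjusted p 0.871 in edgeR), and its groups overlapped. That value is below the median of 0.92 over low tested genes.

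**Figure D5:**
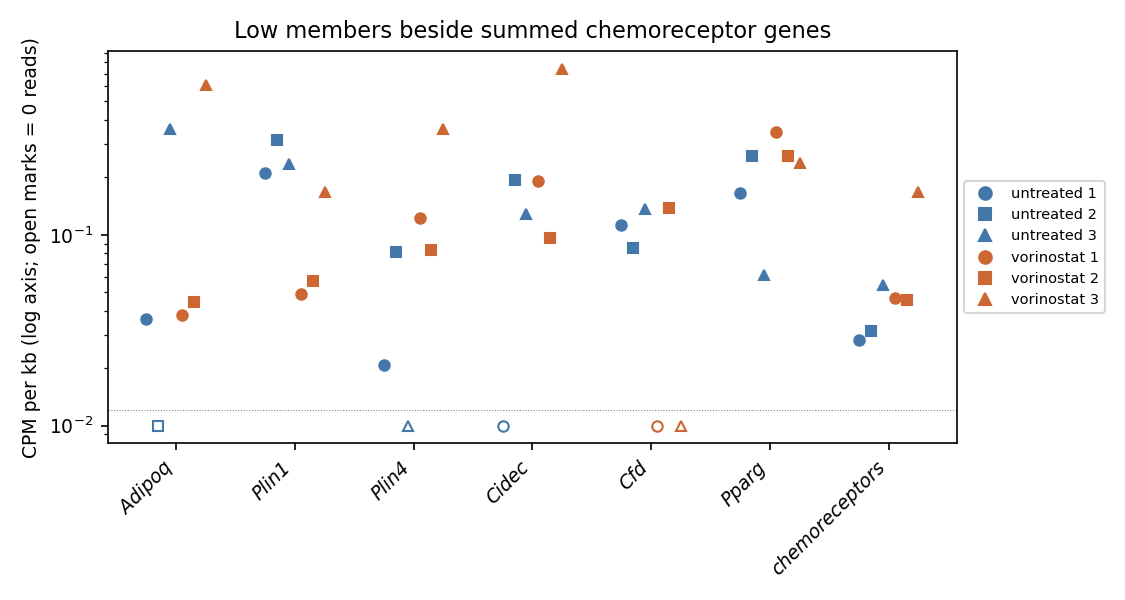
CPM per kb (log axis) of the 6 low members and of the sum of 1349 chemoreceptor genes, 1 mark per tumour, with open marks at the bottom for 0 reads. Vorinostat tumour 3 is the highest for the chemoreceptor genes (0.167) and also for Adipoq, Plin4 and Cidec.

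The wider pathway was read from 81 further genes in 7 lists, of which 66 were tested. None was called. Of the 66, 43 had a log2 fold change above 0 and 23 below, with a median of 0.09, where 54.1% of all tested genes stood above 0. An unadjusted edgeR p under 0.05 was found for 3 of the 66, against 6.27% of all tested genes. Groups did not overlap for 4 of the 66 in the higher and 5 in the lower direction, against 6.53% and 5.53% of all tested genes. All adjusted p-values in the next paragraphs are edgeR's over all 14776 genes.

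Other genes of fat cells were low as well. Of 14 listed, among them leptin (Lep), resistin (Retn) and the adrenergic receptor Adrb3, 8 were tested; all 8 had a log2 fold change above 0, with a median of 0.77, and none was called. Of the 8, 6 had 100 reads or fewer in all, a range in which 86.1% of tested genes stood above 0 with a median of 0.92. The list summed to 4.81 to 9.87 CPM in untreated tumours, to 7.76 and 7.31 CPM in vorinostat tumours 1 and 2 and to 21.1 CPM in vorinostat tumour 3. Lep had 5 to 19 reads per library and Adrb3 5 to 21, with Adrb3 at 0.552 ± 0.255 against 1.05 ± 0.772 CPM (untreated against treated, SD, n = 3 each, adjusted p 0.835). Nnat, a membrane protein of fat and nerve cells, stood at 0.204 ± 0.354 against 0.772 ± 0.609 CPM (adjusted p 0.782). Hormone-sensitive lipase, Lipe, was the most abundant of the list at 2.09 ± 0.418 against 3.16 ± 2.74 CPM. Retn, which the filter left out, had 2 reads in the untreated tumours together and 16 in the treated ones. Every treated tumour lay above every untreated one for it, as for 14.3% of the 8443 genes of 10 to 100 reads left out by the filter.

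Most genes that build and break down triglyceride had reads in all tumours, and none of those tested was called. The exceptions, named after their values were seen, were Mogat1 with 1 read in the untreated tumours together and 14 in the treated ones, and Ces1d with 1 and 5. The filter left both out, and for both every treated tumour lay above every untreated one. Among the genes of 10 to 100 reads left out by the filter, 14.3% were separated in this direction. Ces1d had fewer reads than that range. Of 12 synthesis genes 11 were tested, 3 with a log2 fold change above 0 and 8 below, with a median of -0.14. The phosphatidate phosphatase Lpin2 stood at 11.0 ± 1.30 against 9.03 ± 0.698 CPM (untreated against treated, SD, n = 3 each, adjusted p 0.745), with all 3 treated tumours below the untreated ones, and the acyltransferase Agpat3 at 43.3 ± 5.70 against 36.1 ± 3.80 CPM (adjusted p 0.752). Acsl3, an acyl-CoA synthetase of nascent droplets, was the most abundant at 75.3 ± 4.85 against 71.5 ± 3.38 CPM. Of 8 lipolysis genes 7 were tested, 6 above 0 and 1 below, with a median of 0.06. Hilpda, the inhibitor of adipose triglyceride lipase that hypoxia induces, reached 13.4 ± 2.88 in untreated and 17.2 ± 0.779 CPM in treated tumours (0.37 on the log2 scale, SE 0.18, adjusted p 0.743), with all 3 treated tumours above the untreated ones. Monoglyceride lipase, Mgll, was the most abundant at 71.2 ± 9.34 against 72.3 ± 18.2 CPM.

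Of 12 genes of droplet coats and assembly 7 were tested, 5 above 0 and 2 below, with a median of 0.00. The small GTPase Rab18 stood at 17.2 ± 1.64 against 18.6 ± 3.11 CPM (untreated against treated, SD, n = 3 each), Fitm2, which helps droplets bud, at 4.60 ± 1.02 against 5.14 ± 1.26, and Aup1 at 46.7 ± 4.48 against 46.7 ± 3.81. Of 12 genes of fatty acid uptake and binding 9 were tested, 7 above 0 and 2 below, with a median of 0.16. The lipase maturation factor Lmf1 stood at 14.0 ± 3.15 against 18.0 ± 1.92 CPM (adjusted p 0.745), its relative Lmf2 at 16.7 ± 3.54 against 14.6 ± 0.155, and Fabp5 at 142 ± 11.5 against 138 ± 18.9.

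All 16 adipogenic transcription factors were tested, 10 above 0 and 6 below, with a median of 0.16. Ppard, the broadly expressed relative of Pparg, stood at 17.8 ± 0.660 CPM in untreated and 22.3 ± 1.08 CPM in treated tumours (log2 fold change 0.32, SE 0.13, unadjusted p 0.0333, adjusted p 0.743). All 3 treated tumours lay above the untreated ones for it and for Ebf2, a factor of brown fat precursors, at 0.622 ± 0.153 against 1.26 ± 0.372 CPM (adjusted p 0.767). Prdm16, a regulator of brown fat, was the most abundant at 76.9 ± 0.668 against 68.9 ± 4.51 CPM (adjusted p 0.834), with all 3 treated tumours (63.8 to 72.5) below the untreated ones (76.2 to 77.6). Of 9 genes of fatty acid synthesis, all tested, 5 stood above 0 and 4 below. The desaturase Scd1 was at 79.6 ± 11.5 in untreated and 57.9 ± 4.10 CPM in treated tumours (-0.46 on the log2 scale, SE 0.16, unadjusted p 0.0171, adjusted p 0.743), and its relative Scd2, the most abundant gene of the list, at 646 ± 55.0 against 505 ± 22.9 CPM (adjusted p 0.764). The groups did not overlap for either. Mlxipl, the carbohydrate-sensing factor ChREBP, was at 0.528 ± 0.144 in untreated and 1.67 ± 0.572 CPM in treated tumours (1.62 on the log2 scale, SE 0.65, adjusted p 0.743). It had 30 reads in the untreated and 89 in the treated tumours, and its groups did not overlap. Ebf2 had 35 and 70 reads. Both genes lay just above the range of 100 reads or fewer in all. In that range 15.3% of tested genes were separated upward and 86.1% had a log2 fold change above 0.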

How the data were processed

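RNA of 6 tumours was sequenced from stranded total RNA libraries, per the labels' protocols. The submitters' processing notes name FastQC, Trim Galore, Salmon and GRCm38; versions and annotation are, in the sources used here, not given. The estimated counts deposited by the authors, 1 library per file, were rounded to whole numbers. The TPM values deposited by the authors are scaled by effective length and were used in alternatives. Symbols and positions came from GENCODE M21, which held 44118 of the 44679 identifiers.

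Groups were compared with edgeR 4.0.16 (quasi-likelihood, R 4.3.3): TMM scaling, filterByExpr by group, treatment as the only term, two-sided, Benjamini-Hochberg adjustment over 14776 genes, threshold 0.05. SEs and 95% intervals were computed from each gene's fold change and F value. The script was tested on simulated data, in which 100 genes were changed 2-fold and 100 were changed 4-fold. All of these had a mean of 1 CPM or more. The low members lay below that level, with Plin4 the highest of them at a mean of 0.611 CPM. The simulation therefore gives no recovery rate for them. It recovered 16% of the 2-fold and 87% of the 4-fold changes, with 5 false calls. Most 2-fold changes thus went uncalled there, and the lack of calls here is no measure of a lack of such changes. The members and lists, and the chemoreceptor genes, were chosen with earlier results of these data known. Named pathway genes were the 2 with the smallest p and the most abundant by TPM in each list; for each marker list the first 3 are named. Alternatives were other scalings, filters and tools (DESeq2 1.42.0, limma 3.58.1), TPM, and libraries left out.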

Additional observations from a re-analysis of the deposited data

How the results depend on the processing

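No member was called under any of the 16 alternatives, although the number of members tested ran from 4 to 10; with 1 CPM in 3 libraries, or with mitochondrial genes and ribosomal RNA left out, Plin4 and Pparg were among those not tested. The count of all genes called, 0 in edgeR, was 156 with no filter, 6 in DESeq2, 39 on log2(TPM + 1) and 52 on log2(TPM + 0.1), and ran from 0 to 121 when 1 library was left out, with 121 without untreated tumour 2 and 1 without untreated tumour 3. The median of the tested members, 0.07, was 0.68 on log2(TPM + 0.1), with 0.51 as the median over all genes, and 0.77 without untreated tumour 3 and vorinostat tumour 3, and ran from -0.22 without untreated tumour 2 to 0.80 without untreated tumour 3.

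Directions near 0 turned. With upper-quartile scaling Plin2 stood at 0.05 and Cd36 at 0.02. In limma-voom Plin2 stood at 0.03, Cd36 at 0.39 and Fabp4 at 0.20. On log2(TPM + 1), with 0.26 as the median over all genes, Plin2 stood at 0.48, Cd36 at 0.59 and Fabp4 at 0.27, and on log2(TPM + 0.1) at 0.52, 0.75 and 0.32. Without untreated tumour 3 and vorinostat tumour 3 together Plin2 stood at 0.27, Cd36 at 1.01 (unadjusted p 0.00156, adjusted p 1.0) and Fabp4 at 0.59. In that edgeR fit 560 of 15086 genes had an unadjusted p under 0.05. With 1 library left out Plin2 ran from -0.21 to 0.17, Cd36 from -0.40 to 0.84, Fabp4 from -0.65 to 0.43 and Lpl from -0.23 to 0.80. Beyond construction (other samples or scales) the cause was not tested. Plin4 and Pparg kept a log2 fold change above 0 wherever they were tested; Plin4, at 2.32, ran from 1.5 without vorinostat tumour 3 to 3.64 without untreated tumour 2 (unadjusted p 0.0149, adjusted p 0.219), and stood at 0.12 on log2(TPM + 1) and 0.75 on log2(TPM + 0.1).

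No paired analysis was possible because the replicate numbers used here only follow the order of the samples, and the numbers in the titles share fewer than 2 values between the groups. Depth limits the 6 low members, whose reads per library never exceeded 22.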

Other observations

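The sum of Adipoq, Plin1, Plin4, Cidec and Cfd was 0.572, 1.28 and 1.05 CPM in untreated tumours 1, 2 and 3 and 1.07, 0.827 and 3.50 CPM in vorinostat tumours 1, 2 and 3, so vorinostat tumour 3 stood apart from the other 5. Chemoreceptor genes summed to 205 CPM in that tumour and to 34.6 to 68.7 CPM in the others. Of 226 chemoreceptor genes with 10 or more reads, 45 (19.9%) had every treated tumour above every untreated one and 0 the reverse, where 15.3% of low tested genes and 14.3% of low genes left out by the filter were separated upward. The 5 genes whose log2 CPM was most like the sum of the 5 low members over the 6 tumours, among 11627 searched, were Map3k9, Nptx1, Pitpnm2, Nefh and Pcare (Pearson's r of 0.992 to 0.999). They are given as a description: they are the highest of many correlations over 6 libraries, of which vorinostat tumour 3 stands apart in the sum.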
